A study of Oryza sativa with 4 samples.

Results

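The genes described here come from the families of the cytokinin relay in rice, which runs from the membrane to the nucleus. RR21, RR22, RR23, RR24 and RR33 are listed here as type-B response regulators, HK4 as a receptor kinase gene, and AHP1 and Hpt5 as phosphotransfer genes. They were found by symbol or synonym in the RefSeq gene table, and every probe set that the platform annotation gives to one of them alone was taken. This gave 8 genes with 9 probe sets, of 17905 genes that have their own probe set. AHP1 has 2 probe sets and each of the other genes has 1. The genes were chosen by name, and earlier results of these arrays were known when they were chosen.

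Cytokinins are plant hormones that promote cell division and delay leaf senescence. Receptor kinases bind the hormone and pass a phosphate to small phosphotransfer proteins, which shuttle into the nucleus and hand it to response regulators. Type-B regulators are DNA-binding transcription factors that switch on the response, and among their known targets are the type-A regulators, which lack the DNA-binding domain and dampen the signal. Pseudo-phosphotransfer proteins, the class to which the synonym PHP5 assigns Hpt5, lack the histidine that takes up the phosphate.

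Leaf RNA of rice (Oryza sativa, cultivar Nipponbare) was hybridised to 4 single-colour arrays. The 2 control arrays hold leaves of plants transformed with the empty vector pActnos/Hmz, and the 2 others leaves of plants transformed with pActnos/Hmz-OsRR6, which carries the type-A regulator gene OsRR6. All plants were T0 transformants raised from callus on medium with hygromycin-B and grown hydroponically to heading in days of 12 h at 30 °C with nights of 12 h at 25 °C, and leaves were taken at 75 days. The promoter of the transgene is named only through the vector, and the labels give neither the number of lines nor the plants behind each array. The p-values therefore measure only how these samples differ, which may be technical.

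The probe set of OsRR6 (RR6, LOC4337372) does not separate the groups as the labels would have it. Its signal was 2558.7 and 2733.2 in the controls against 2264.2 and 1989.4 for the arrays labelled overexpressor. The log2 change of -0.32 did not pass (adjusted p = 0.0597), it passed as a fall under 3 of 16 alternative settings, and it was -0.0032 after scaling to the hybridisation spikes. The part of the transcript this probe set covers is not known here, and one outside the transgene would check nothing. Below, overexpressor arrays means the arrays so labelled. Signals are linear array intensities that the authors had brought to a trimmed mean of 500.1 on every array, and between 56.9% and 61.7% of the probe sets lay above background, the 95th percentile of control probe sets for transcripts foreign to rice (30.0 to 43.4). Across the tested probe sets the arrays correlated at 0.988 within the control pair, at 0.975 within the overexpressor pair and at 0.931 to 0.938 between groups. Probe sets with a mean log2 signal at or above the median were compared with limma, and a change was called at a Benjamini-Hochberg adjusted p of 0.05 over all 28629 of them. Group values are means ± SD of 2 arrays.

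Of the 8 genes, 6 were called, 4 higher and 2 lower. RR23, AHP1, RR22 and RR24 were higher on the overexpressor arrays and HK4 and RR21 were lower, while Hpt5 did not pass and RR33 was not detected. Counted by probe set, 7 of 8 tested were called (5 higher and 2 lower), against 28.5% of all tested probe sets (15.4% higher and 13.1% lower). AHP1 counts with 2 probe sets among these 8. The genes were chosen with earlier results of these arrays known, so the 2 shares make no test of the relay. Of 5 probe sets of other receptor and phosphotransfer genes, 0 were called. The median log2 change was 0.48 over these 8 probe sets and 0.08 over all tested. Without control replicate 1 or without control replicate 2, only 2 of the 8 were called, those of RR23 and the brighter probe set of AHP1. Over the whole array fewer probe sets were called in those 2 fits as well, each of which had only 1 control array. With 2 arrays against 2, the smallest p of an exact permutation test is 0.33 (two-sided), so every call rests on the spread that limma shares between probe sets.

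**Figure D1:**
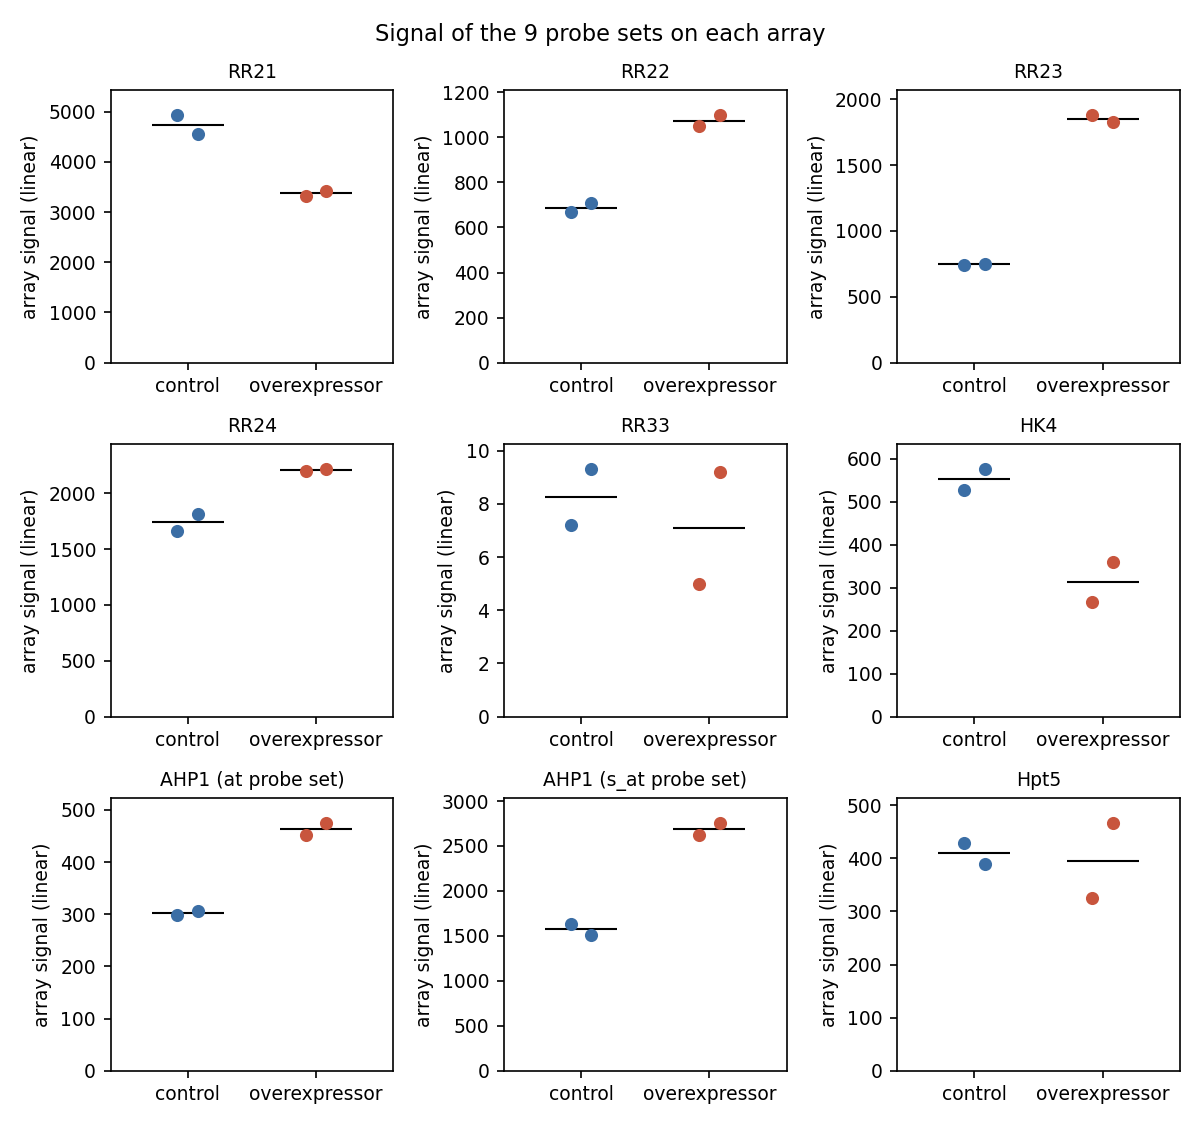
Linear array signal (y axis, from 0) of the 9 probe sets on the 2 control and 2 overexpressor arrays, with each point an array and each line the mean of a group. The groups are apart for RR21, RR22, RR23, RR24, HK4 and both AHP1 probe sets, and overlap for RR33, with all 4 values between 5.0 and 9.3, and for Hpt5.

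RR23 (LOC4331008), a type-B regulator studied in rice together with RR21 and RR22 as partly redundant activators, had the largest change. The control arrays gave 743.3 and 748.6, the overexpressor arrays 1878.5 and 1824.5. Both overexpressor arrays lay far above both control arrays, which differed from each other by only 0.01 on the log2 scale. The mean rose 2.48-fold, from 746.0 ± 3.75 to 1851.5 ± 38.2, or by 1.31 on the log2 scale (SE 0.10, 95% interval 1.07 to 1.54, adjusted p = 0.000558). The absolute log2 change exceeded that of 94.4% of the tested probe sets. It was called under all 16 alternative settings, with a log2 change between 1.21 and 1.62.

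RR22 (LOC4340320), a type-B regulator known in rice for the salt tolerance of plants that lack it, rose as well. Its signals were 668.9 and 707.6 in control leaves, and 1051.0 and 1097.7 in overexpressor leaves. The groups did not overlap, and the arrays within each group differed by 0.08 and 0.06 on the log2 scale. The mean rose 1.56-fold, from 688.2 ± 27.4 to 1074.3 ± 33.0, and on the log2 scale by 0.64 (SE 0.11, interval 0.38 to 0.90, adjusted p = 0.00808). The call was lost without control replicate 1 (0.60, adjusted p = 0.094) and without control replicate 2 (0.68, adjusted p = 0.0641).

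RR24 (LOC4328516), a type-B regulator also known for a part in rice meiosis, showed the smallest called change. Controls gave 1664.3 and 1811.9, overexpressors 2199.7 and 2214.0, and here too both overexpressor arrays were above both control arrays. The mean rose 1.27-fold, from 1738.1 ± 104.4 to 2206.8 ± 10.1, or by 0.35 on the log2 scale (SE 0.09, interval 0.12 to 0.57, adjusted p = 0.0348). Its absolute change exceeded that of 51.3% of the tested probe sets, so about as many moved more as moved less. It was called under 10 of 16 alternative settings, and median centring took it to 0.24 (adjusted p = 0.1), spike scaling to 0.66 (adjusted p = 0.00324). Without control replicate 1 or 2 it was among the calls lost.

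RR21 (LOC4332111) moved the other way from the other type-B regulators that were tested. Its signal was 4928.8 and 4549.9 in control leaves against 3329.8 and 3413.4 in overexpressor leaves, with both overexpressor values below both control values. The mean was 1.41-fold lower, 3371.6 ± 59.1 against 4739.4 ± 267.9, and the log2 change was -0.49 (SE 0.08, interval -0.69 to -0.29, adjusted p = 0.00782). This fall was called under 12 of 16 alternative settings, but not without control replicate 1 (-0.43, adjusted p = 0.107) or control replicate 2 (-0.55, adjusted p = 0.0515). It shrank to -0.18 (adjusted p = 0.157) when arrays were scaled to the hybridisation spikes, whose own mean log2 change was -0.31.

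RR33 (LOC4345758) gave no measurable signal in these leaves. Its probe set gave 7.2 and 9.3 for the controls and 5.0 and 9.2 for the overexpressors, below background on all 4 arrays. The gene table also lists it as OsRRA19, a name from the type-A series. It did not enter the test, so 4 of the 5 type-B genes listed here were compared (3 higher and 1 lower). The genes RR25 and RR27, found in the gene table under the names of further type-B regulators, have no probe set of their own in the annotation and were not analysed here.

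HK4 (LOC4333916) encodes a histidine kinase of the cytokinin receptor family. The controls gave 528.5 and 576.0, the overexpressors 266.0 and 359.5. The groups did not overlap, but the overexpressor arrays differed from each other by 0.43 on the log2 scale, against 0.12 for the control arrays. The mean was 1.77-fold lower, 312.8 ± 66.1 against 552.2 ± 33.6, and the log2 change was -0.83 (SE 0.19, interval -1.27 to -0.38, adjusted p = 0.0197). The fall came to -0.61 without overexpressor replicate 1 and to -1.04 without overexpressor replicate 2, both called. The call was lost without control replicate 1 (-0.89, adjusted p = 0.0897) and without control replicate 2 (-0.77, adjusted p = 0.13). After spike scaling it was -0.51 (adjusted p = 0.0524).

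The other receptor genes did not pass the test with the deposited scaling. HK3 gave 2951.7 and 2887.3 in the controls against 3767.2 and 3176.6 (log2 change 0.24, interval -0.01 to 0.50, adjusted p = 0.129). HK5 has 2 probe sets, with log2 changes of -0.25 (adjusted p = 0.187) and -0.27 (adjusted p = 0.0722). CRL4, a kinase with the hormone-binding domain of the receptors but a different kinase domain, had a log2 change of 0.30 with a wide interval of -0.29 to 0.88 (adjusted p = 0.398). Set against them within each array, HK4 was lower on both overexpressor arrays: its log2 ratio to HK3 was -2.47 and -2.32 in the controls against -3.81 and -3.13. Its ratio to the first HK5 probe set was -0.15 and 0.03 against -0.84 and -0.43.

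AHP1 (LOC4346300) encodes a phosphotransfer protein with the conserved histidine and is annotated under many synonyms, among them OHP1 and HP2. The brighter of its probe sets, of a type that can hybridise to several transcripts (s_at), gave 1632.5 and 1511.2 in control leaves against 2618.9 and 2752.8 in overexpressor leaves. The other gave 298.9 and 306.4 against 451.8 and 474.3. In both, each overexpressor array lay above each control array. The brighter rose 1.71-fold, from 1571.8 ± 85.8 to 2685.9 ± 94.7 (log2 change 0.77, SE 0.09, interval 0.55 to 1.00, adjusted p = 0.00245). The dimmer rose 1.53-fold, from 302.6 ± 5.3 to 463.1 ± 15.9 (log2 change 0.61, SE 0.14, interval 0.26 to 0.95, adjusted p = 0.0237). The log2 ratio between them differed by 0.16 between groups, against a difference of up to 0.15 between arrays of one group, so the probe sets differed little in the change they gave. The brighter was called under all 15 alternative settings that hold it. The dimmer was not called without control replicate 1 (0.59, adjusted p = 0.18) or control replicate 2 (0.62, adjusted p = 0.154).

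AHP2 (LOC4347886), the other phosphotransfer gene with a conserved histidine that was measured, gave 4574.9 and 4716.2 in the controls against 5519.6 and 4862.5. Its log2 change was 0.16 (interval -0.06 to 0.38, adjusted p = 0.239) and did not pass. Within arrays the log2 ratio of the dimmer AHP1 probe set to AHP2 was -3.92 and -3.93 in the controls against -3.60 and -3.35, so AHP1 gained on AHP2 in both overexpressor arrays. Hpt5 (LOC107278650) read 429.1 and 389.5 against 324.7 and 466.3. The control values lay between the overexpressor values, which differed from each other by 0.52 on the log2 scale. Its log2 change was -0.07 (interval -0.56 to 0.42, adjusted p = 0.826), and changes within that interval could not be told from none on these arrays. It was 0.19 without overexpressor replicate 1 and -0.33 without overexpressor replicate 2, and it passed under none of the 15 alternative settings that hold it.

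**Figure D2:**
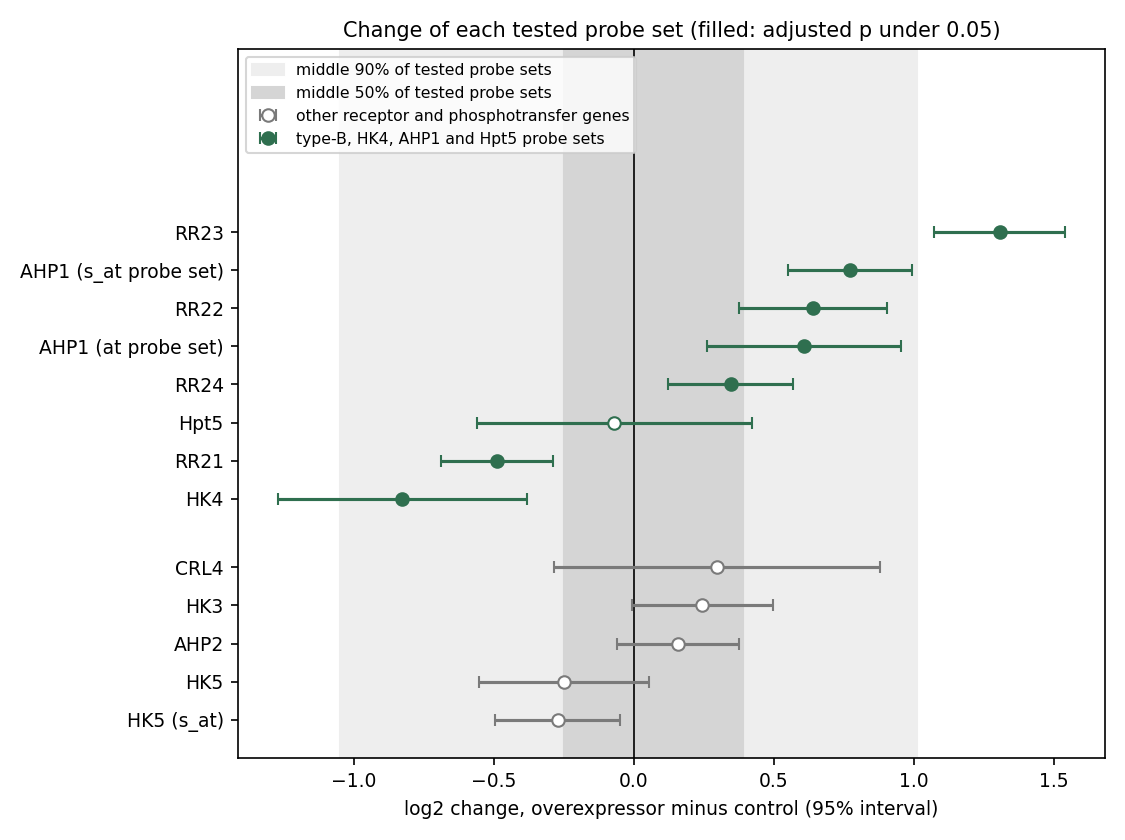
Log2 change (x axis, overexpressor minus control, with 95% interval) of the 8 tested probe sets of these genes in green and of 5 probe sets of other receptor and phosphotransfer genes in grey, over bands from the 25th to the 75th percentile (-0.25 to 0.39) and from the 5th to the 95th percentile (-1.05 to 1.01) of all tested probe sets. RR23 at 1.31 lies outside the wider band, the other called members lie between -0.83 and 0.77, and all 5 grey points are open, that is not called.

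The order of the changes ran from RR23 through AHP1, RR22, RR24, Hpt5 and RR21 to HK4. Neighbours were compared by the log2 ratio of their signals within each array, which hardly depends on how the arrays were scaled. RR23 stood apart from its neighbour, since its ratio to the brighter AHP1 probe set differed by 0.54 between the groups, against at most 0.12 between arrays of a group. AHP1 and RR22 could not be ordered: the ratio of RR22 to the dimmer AHP1 probe set was 1.15 and 1.20 in the controls against 1.21 and 1.20. RR24 lay below them, with its ratio to the same AHP1 probe set lower by 0.26 (at most 0.09 within a group). RR24 and Hpt5 differed by 0.42, Hpt5 and RR21 by 0.42, and RR21 and HK4 by 0.34, none of them more than the largest difference within a group (0.51, 0.48 and 0.39).

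The balance among the type-B regulators differed between the groups, which follows from the changes given above. The ratios show these changes array by array and are no further test. The log2 ratio of the RR21 probe set to that of RR23 was 2.72 and 2.60 in control leaves against 0.82 and 0.90 in overexpressor leaves, a shift of -1.80, with at most 0.13 between arrays of a group. The ratio of RR21 to RR22 went from 2.87 and 2.68 to 1.66 and 1.63, and that of RR21 to RR24 from 1.56 and 1.33 to 0.60 and 0.62. RR22 and RR23 rose unequally, with a ratio of -0.15 and -0.08 that fell to -0.84 and -0.73. Across the receptor and its relay, the ratio of HK4 to the dimmer AHP1 probe set went from 0.81 and 0.90 to -0.76 and -0.40. Only the shift of such a ratio carries meaning, since probe sets differ in brightness for the same amount of transcript. Separation of groups is itself frequent here: the signals of 68.1% of all tested probe sets did not overlap between the groups, and those of 7 of these 8 did not. The ratios of all 28 pairs of these probe sets were apart too, even that of RR22 to the dimmer AHP1 probe set with a shift of 0.03. Separation of a ratio therefore tells little by itself.

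**Figure D3:**
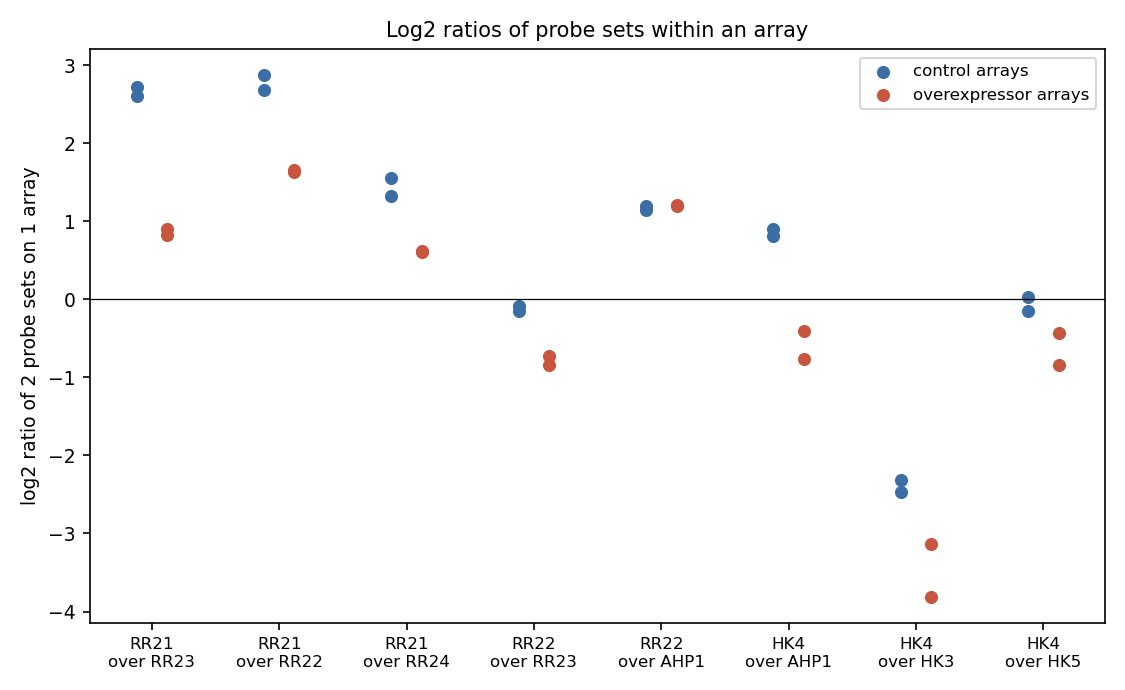
Log2 ratio of 2 probe sets on the same array (y axis) for 8 pairs (x axis), with blue points for the control arrays and red points for the overexpressor arrays; AHP1 is its dimmer probe set and HK5 its first. The ratio of RR21 to RR23 falls from 2.72 and 2.60 to 0.82 and 0.90, whereas that of RR22 to AHP1 lies between 1.15 and 1.21 on all 4 arrays.

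The number called depended on the scaling. Quantile normalization and cyclic loess each called 5 higher and 2 lower, as with the deposited scaling. Median centring called 4 higher and 2 lower. Spike scaling called 5 higher and 0 lower, and it moved the median of all tested probe sets from 0.08 to 0.40. Of all tested probe sets, quantile normalization called 27.8%, cyclic loess 28% and median centring 26.8%, against 28.5% as deposited. Spike scaling called 47.8%, and 84.6% of those calls were higher. The spike-scaled rise was 0.95 for RR22 and 0.92 for the dimmer AHP1 probe set. RR21 and HK4 kept a negative sign in all of these scalings, and Hpt5 turned to 0.24 (adjusted p = 0.326) under spike scaling.

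**Figure D4:**
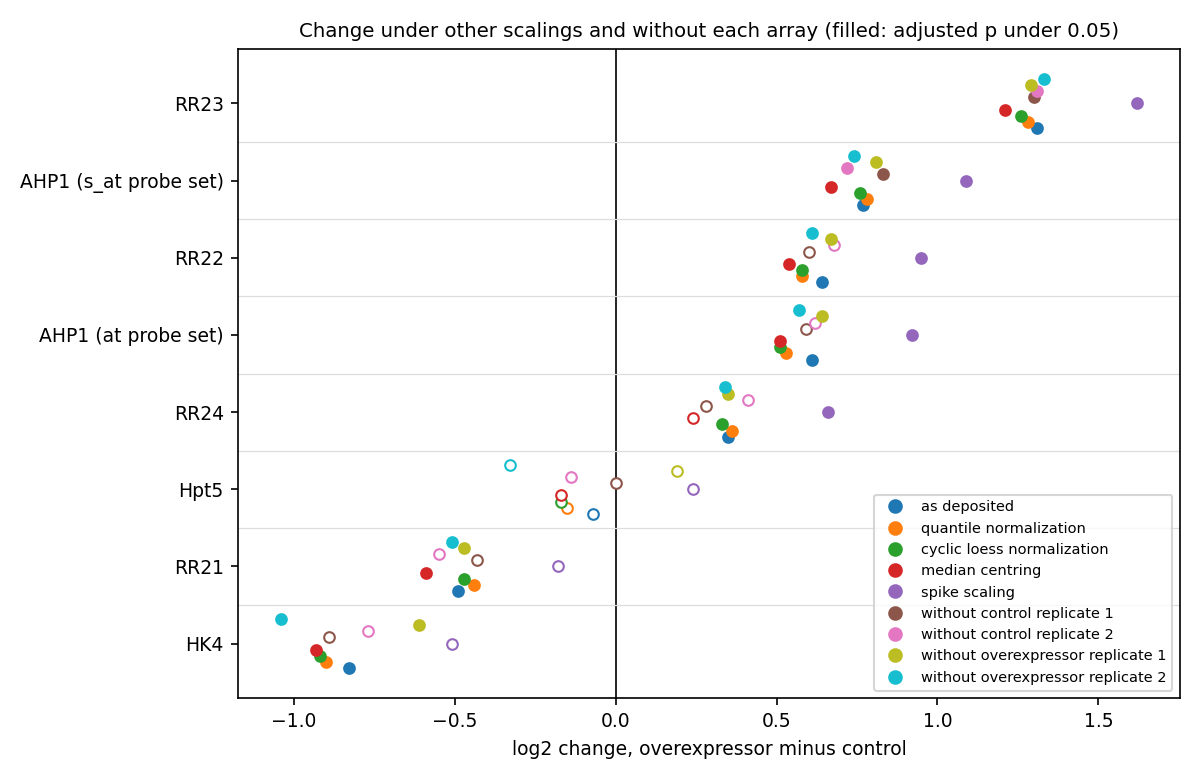
Log2 change of the 8 tested probe sets (x axis) with the deposited scaling, under 4 other scalings and without each of the 4 arrays, with filled points for an adjusted p under 0.05. The points of RR23 and of the s_at probe set of AHP1 are all filled, those of RR21 and HK4 are open under spike scaling and without either control array, and Hpt5 crosses 0.

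The other genes of the cytokinin pathway that the annotation names gave 22 tested probe sets outside these genes, of which 8 were called, 1 higher and 7 lower (36.4%, against 28.5% of all tested). In the list of other receptors and phosphotransfer proteins 0 of 5 probe sets were called by limma at the adjusted threshold, and 1, of HK5, had an unadjusted p under 0.05. The same list had 2 called higher after spike scaling (median 0.47 instead of 0.16), 1 lower after median centring, and 2 higher and 1 lower without overexpressor replicate 2. In the type-A list 2 of 6 tested probe sets were lower and 0 higher. RR1, a type-A regulator, fell from 647.1 and 588.8 to 266.3 and 391.8 (log2 change -0.93, adjusted p = 0.0195), and RR42, counted in that list here, from 1920.5 and 1742.0 to 1366.8 and 1448.1 (-0.38, adjusted p = 0.0342). The list's median was -0.35, and -0.03 after spike scaling.

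Of the list for breakdown and conjugation of the hormone, only cytokinin dehydrogenase genes had probe sets assigned to them alone. Of 3 tested probe sets 2 were lower, those of CKX4 (log2 change -3.16) and CKX5 (-1.88), with a list median of -1.88. The remaining probe set, of CKX11, read 716.0 and 758.3 in the controls against 1270.5 and 792.7. It was not called (log2 change 0.44, adjusted p = 0.176), but it was called higher after spike scaling. Of 8 tested probe sets for synthesis and activation 1 was higher and 3 were lower, with a median of -0.38 (-0.07 after spike scaling). All of them belong to LOG and LOGL genes. The genes searched for earlier steps of synthesis had no probe set assigned to them alone, and 34850 probe sets are not listed in the annotation. LOGL1, a gene for an enzyme that releases the active hormone, was higher (1.27), and LOG (-1.12) and LOGL3 (-1.52) were lower. The LOGL1 probe set is of a type that can hybridise to several transcripts (x_at). Without probe sets of such types, 0 of 19 tested pathway probe sets outside the members were called higher and 7 lower. The probe sets of LOGL7 disagreed, at -0.20 (adjusted p = 0.27) and -1.18 (adjusted p = 0.0197). Without overexpressor replicate 2, 17 of the 22 pathway probe sets were called instead of 8 (5 higher and 12 lower), and spike scaling called 5 higher and 6 lower.

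Marker lists for the cell types that a leaf sample at heading could hold were compared as well. Of all tested probe sets 28.5% were called (15.4% higher and 13.1% lower). Of 5 tested anther and pollen probe sets 4 were lower, and their summed signal over 6 probe sets was 14206 and 14838 in the controls against 1172 and 714. RTS, a gene of the anther tapetum, was at background on both overexpressor arrays (10.8 and 3.8). The probe sets of RTS and C6 passed the signal filter only through the control arrays, so their calls could only be lower. Of 14 tested probe sets for dividing cells 12 were higher and 0 lower, with sums of 3889 and 4095 against 6846 and 10060. Of the 16 probe sets for leaf mesophyll 14 were above background on all 4 arrays, and a probe set of rcaA1 (Rubisco activase) read 25009.1 and 25478.4 in the controls against 12074.0 and 11453.8. RBCS1 was above background on 0 arrays and a probe set of RBCS on 1. The mesophyll sums were 203978 and 217096 against 143929 and 137383, with 7 of 13 tested lower, from 4 genes. Every rcaA1 probe set was among the lower ones. Most of the fall in the sums lies in the probe sets of this 1 gene, so the sums do not describe the mesophyll list as a whole. The brightest RBCS probe set (log2 change -0.20, adjusted p = 0.0888), both of CAB2R (-0.25 and -0.16) and that of RCABP69 (-0.06) were not called. Control leaves also gave clear signals of some anther genes, such as C6 (5288.5 and 5682.4), and of the meristem gene OSH1 (1805.2 and 1943.3 for its brighter probe set). In the same anther list, CP1 was near background in the controls (34.1 and 29.0) and was not tested. TDR was dim in the controls (102.6 and 102.2) and its change was not called (-0.34, adjusted p = 0.39). Of 6 vascular and secondary wall probe sets 4 were lower (sums 15192 and 15529 against 12168 and 11338). Of 4 shoot meristem probe sets 1 was lower (sums 4660 and 4777 against 3608 and 3813), near the share called over all tested. Spike scaling left 5 mesophyll probe sets lower, 1 vascular probe set higher and 1 lower, and 0 of the meristem list called, while median centring gave 11, 5 and 2 lower in these lists. The anther list had 4 lower under each of the scalings, and the list for dividing cells 9 to 14 higher and 0 lower. No marker was listed at 0. The part of these shifts in the changes of the cytokinin genes was not tested, and in whole leaf tissue fewer cells of a type and less RNA per cell cannot be told apart.

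Named genes whose signal ran most like that of RR23 and of HK4 over the 4 arrays were sought among 2690 tested probe sets with a gene name, by the Euclidean distance between mean-centred log2 values. For RR23 the 3 nearest were OsCASPL1B1 (distance 0.087, log2 change 1.31), GER5, a germin-like protein gene (0.11, 1.28) and OsWNK2, a protein kinase gene (0.17, 1.26). For HK4 they were 4CLL4 (0.077, -0.88), the jasmonate repressor gene JAZ3 (0.078, -0.81) and the cellulose synthase gene CESA1 (0.10, -0.83). Over 4 arrays this distance says little more than that the changes are of equal size.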

How the data were processed

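The deposited table gives 1 intensity for each of 57381 probe sets on each of 4 arrays, unlogged. Which software made them: not given in the sources used here. From the values, the authors had scaled the arrays to equal means after trimming 2% at each end, so a shift of all transcripts cannot be seen. The platform annotation gives 22436 probe sets 1 gene and 95 several, and 34850 are not listed in it. Names came from the RefSeq table of assembly ASM3414082v1, without coordinates, and 4 genes were left out because a list name means another gene there.

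A pseudocount of 3.6 (the 10th percentile) was added before log2, which understates changes of dim transcripts. The 123 control probe sets and those below the median mean signal were left out. The remaining 28629 were fitted with limma 3.58.1 in R 4.3.3 (lmFit, eBayes with trend), with two-sided p-values and Benjamini-Hochberg adjustment. The procedure was tested on data simulated from its own assumptions, with few and large changes. That cannot show how it performs on these arrays. Intervals are 95% intervals. Background uses 69 control probe sets, and spike scaling 27 hybridisation spikes. No detection calls were used, and the number of arrays limits precision. Groups and replicate numbers come from the sample titles. Same-numbered arrays did not deviate together (correlation -0.021), and the number is no block. The genes were named by a rule that takes all members, the called genes of each cytokinin list or otherwise its brightest, marker genes, and the nearest patterns. Members, lists and rule were chosen with earlier results of these data known. Alternatives covered pseudocount, scaling, filter, spread model, block, single arrays and multi-transcript probe sets.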

Additional observations from a re-analysis of the deposited data

How the results depend on the processing

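With 2 arrays a group, fewer probe sets were called without a control array than without an overexpressor array. The median log2 difference between arrays was 0.115 in the control pair and 0.203 in the overexpressor pair. Single genes varied: the control pair differed more for RR21 (0.12 against 0.04) and RR24 (0.12 against 0.01), and less for HK4 (0.12 against 0.43). Leaving out 1 array gave 2 to 7 called probe sets of the type-B, HK4, AHP1 and Hpt5 genes instead of 7 (2 without either control array), 3019 to 11102 over the whole array instead of 8170, and 5 to 17 of the other cytokinin genes instead of 8. Without the trend of spread with signal, 4 of the 8 probe sets were called, with RR21, RR24 and HK4 lost, and 5041 over the array. Spike scaling called 13685 over the array (84.6% of them higher, against 54.0% as deposited), and median centring gave 39.6% higher. With the replicate number as a block 6 of the 8 were called (7931 over the array), RR24 being lost (adjusted p = 0.0515). The sign of Hpt5, never called, turned under spike scaling (0.24) and without overexpressor replicate 1 (0.19, against -0.33 without overexpressor replicate 2). The cause of these shifts was not tested. The other settings gave counts within 1.5 times the reported ones.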
